A study of Homo sapiens with 6 samples.

Results

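This account follows 10 genes of the mitotic spindle, cytokinesis and the mitotic chromosome in U2OS cells, an established human osteosarcoma line, with and without knockdown of the transcription factor E2F7. The genes are ANLN, PRC1, ECT2, RACGAP1, NUSAP1, TPX2, HMMR, CEP55, MKI67 and TOP2A. They were taken by name, and all 10 were listed at every time, among 11886 genes listed at every time and 13161 listed at any time. Knockdown cells had received E2F7-directed siRNA (siE2F7), and controls a non-target one (siNT). All had been arrested with 4 mM hydroxyurea, a blocker of deoxynucleotide supply, for 24 h, and were harvested 0, 3 or 12 h after its removal, which the series takes as G1/S, S phase and G2/M, in that order. The groups are thus siNT at 0, 3 and 12 h and siE2F7 at 0, 3 and 12 h, with 1 library each and 6 in all. The series asks which genes change through the cell cycle when E2F7 is reduced.

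When a cell divides, antiparallel microtubules are bundled between the separating chromosomes into a midzone. The midzone places a RhoA-driven contractile ring of actin and myosin, and the thin bridge left after ingression is cut at the midbody. Transcripts of this machinery accumulate late in the cell cycle, and their promoters often hold a CHR element, the site through which the MuvB complex acts, as part of the DREAM repressor early and with B-MYB and FOXM1 later. E2F7 is an atypical E2F that represses transcription from E2F sites.

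Promoter sequence is shown first, and any link between it and the changes given below was not tested. RefSeq promoter windows (GRCh38.p14, 250 bases before to 50 after an annotated start) were found for 8 of the 10 genes, in 9 windows, as ECT2 has 2 that overlap. TPX2 and RACGAP1 were not searched. The CHR letters TTTGAA, read on both strands, were in a window of all 8 genes, and in 15.2% of all 35116 windows of this length (10.2% of the 12188 windows of tested genes). Within the 250 bases before the start they were found for 7 genes (13.3% of all windows), as the match of NUSAP1 lies after its start. The CCAAT box, the site of NF-Y, was found before the start in 7 genes, all but ANLN (32.0% of all windows). The variant TTCGAA was in no window of the 8 genes (1.45% of all).

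In 4 genes a CHR match lies wholly within the 100 bases before the start. Those stretches are printed 5′ to 3′ on the gene's own strand, with CHR and CCAAT matches on either strand in capitals. They are ANLN at chr7:36389762-36389861 (plus strand), PRC1 at chr15:90994536-90994635 (minus strand), HMMR at chr5:163460532-163460631 (plus strand) and MKI67 at chr10:128126424-128126523 (minus strand).
ANLN: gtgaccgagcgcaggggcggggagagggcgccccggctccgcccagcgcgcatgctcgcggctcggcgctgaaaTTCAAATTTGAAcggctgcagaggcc
PRC1: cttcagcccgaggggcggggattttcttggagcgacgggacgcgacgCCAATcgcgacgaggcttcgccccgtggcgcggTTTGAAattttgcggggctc
HMMR: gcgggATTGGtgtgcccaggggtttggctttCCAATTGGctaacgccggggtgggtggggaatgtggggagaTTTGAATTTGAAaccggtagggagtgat
MKI67: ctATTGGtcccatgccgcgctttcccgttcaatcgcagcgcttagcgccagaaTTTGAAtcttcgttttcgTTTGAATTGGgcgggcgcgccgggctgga

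In ANLN, PRC1, HMMR and MKI67 the CHR match nearest the start began 20, 20, 22 and 29 bases before it. ANLN, HMMR and MKI67 each held 2 copies in this stretch. In HMMR 2 CCAAT matches overlap, and in MKI67 the CHR match nearest the start overlaps a CCAAT match.

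For the other 4 genes 30 bases around the match nearest the start are printed, with the CHR in capitals. It began 34 bases after the start in ECT2 (chr3:172750746-172750775, plus strand), 13 after it in NUSAP1 (chr15:41332882-41332911, plus strand), 3 before it in CEP55 (chr10:93496597-93496626, plus strand) and 151 before it in TOP2A (chr17:40418030-40418059, minus strand).
ECT2: agagcagcttagttTTTGAAtcggttgtgg
NUSAP1: tggcgccagggaTTTGAAccgcgctgacga
CEP55: gcagccgcgggaTTCAAActcccggaagcg
TOP2A: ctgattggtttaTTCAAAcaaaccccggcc

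Letters of an E2F site were searched as exact strings, each of which few of all windows hold. Of TTTCGCGC, TTTGGCGC, TTTCCCGC and GGCGCGAA on both strands, 1 match was found, TTTGGCGC beginning 174 bases before the start of NUSAP1. TTTGGCGC is in 0.652% of all windows, and the other 3 are in 0.515%, 1.63% and 0.960%. The 30 bases around the match (chr15:41332696-41332725, plus strand) are printed with it in capitals.
NUSAP1: gttacaggcccTTTGGCGCctgcgtattcg

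**Figure D1:**
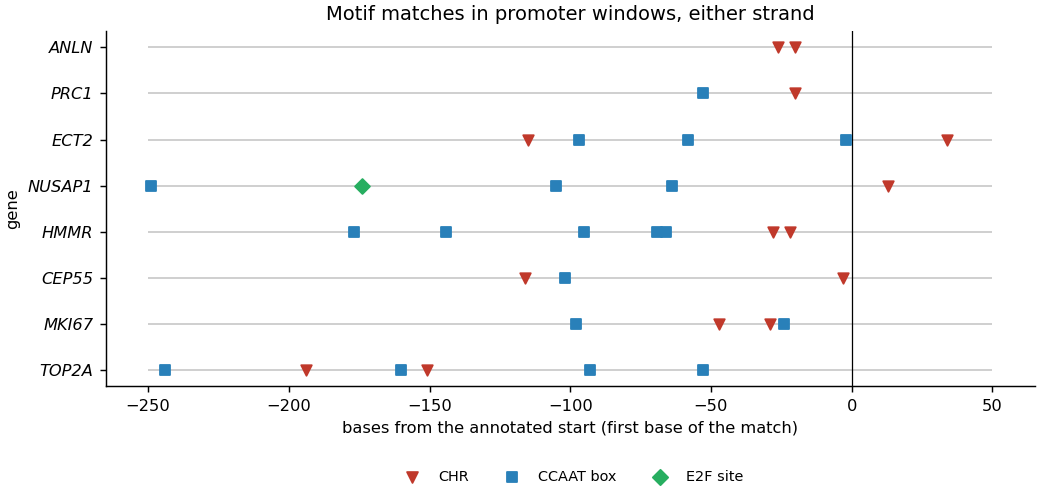
Matches to CHR, CCAAT box and E2F site letters on either strand in the promoter windows of 8 genes, by distance in bases of the first base of the match from the annotated start. Each line is 1 window (for ECT2 the upstream one of 2). A CHR match begins within 30 bases before the start in ANLN, PRC1, HMMR, CEP55 and MKI67, and that of CEP55 runs past the start.

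The libraries were first checked by the targeted gene. E2F7 (FPKM, fragments scaled by transcript length and library size) stood at 20.3, 29.4 and 16.6 in siNT at 0, 3 and 12 h, and at 9.48, 10.6 and 5.52 in siE2F7, a log2 change of -1.37 ± 0.10 (SE; limma, adjusted p = 0.00102). FPKM summed to between 351305 and 375954 per library, and the number of reads behind them is unknown. Of markers of the line's osteoblast origin and mesenchymal form, SPARC (401 to 528 FPKM), COL1A1 (261 to 376) and VIM (759 to 886) were high, and RUNX2 was at 2.83 to 4.60. ALPL, at 4.61 to 12.4 FPKM, was itself lower in siE2F7 (log2 change -0.37, limma, adjusted p = 0.043), and the part of this in the results was not tested. Of epithelial markers, EPCAM was at 2.33 to 3.27 FPKM in all libraries, and CDH1 at 1.29 to 1.69 in those of 0 and 3 h. PTPRC and CD3E, blood cell markers, were not analysed here.

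Of the 10 genes 6 rose after E2F7 knockdown. All 10 had their highest ratio of siE2F7 to siNT at 12 h, as did 30.6% of all genes. None of the 10 passed a test of the 12 h ratio against the earlier ones, given below. NUSAP1, MKI67, PRC1, RACGAP1, TOP2A and CEP55 passed the test over the 3 times (limma with a time block on log2(FPKM + 0.1), Benjamini-Hochberg adjustment over all 11886 genes at 0.05), with rises between 1.23-fold for CEP55 and 1.58-fold for NUSAP1. TPX2, ECT2, HMMR and ANLN did not pass. None was called lower. Of all genes tested, 6.76% were called higher and 7.13% lower. At an unadjusted p under 0.05, 9 of the 10 were higher and 0 lower, against 13.5% and 16.7% of all genes. The median log2 change of the 10 genes was 0.33, against -0.03 over all genes. In bulk RNA, more cells in late cell cycle and more transcript per cell cannot be told apart. Nothing in the labels says that the times came from separate cultures, so the spread behind the p-values is only that between these libraries and may be technical. With 1 library per arm and time, it is the spread of the siE2F7 to siNT ratio between the 3 times. A ratio that truly changes with time thus counts as error in this test.

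**Figure D2:**
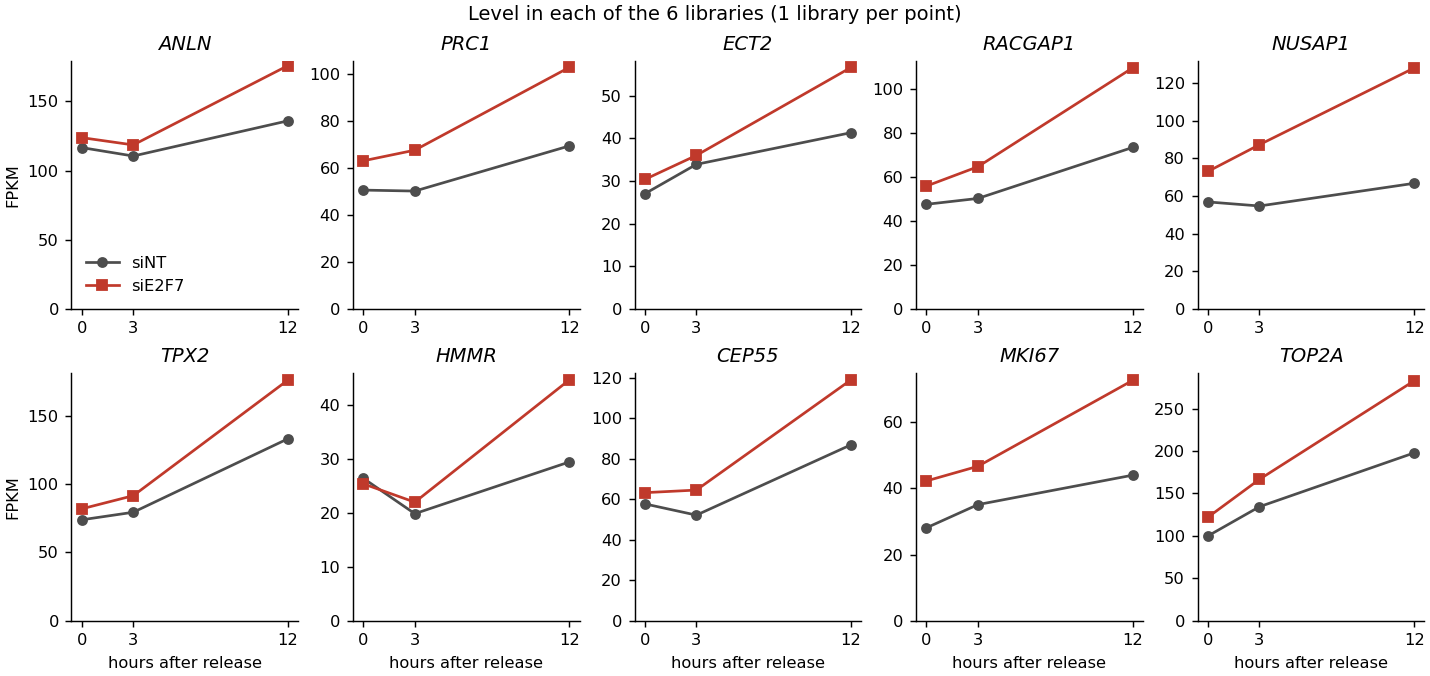
FPKM (y, from 0) against hours after release (x) for the 10 genes, with 1 library per point, siNT as grey circles and siE2F7 as red squares. The siE2F7 library of 12 h is the highest of the 6 in every panel, and only HMMR at 0 h has its siE2F7 point under its siNT point.

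Among the midzone genes, PRC1 and RACGAP1 rose. PRC1 (hg19, chromosome 15, 91509268 to 91537804) crosslinks antiparallel microtubules of the midzone. It stood at 50.6, 50.2 and 69.4 FPKM in siNT at 0, 3 and 12 h, and at 63.1, 67.6 and 103 FPKM in siE2F7. Control cells were level between 0 and 3 h, and the siE2F7 library was the higher at each time, although the siNT library of 12 h lay above the siE2F7 libraries of 0 and 3 h. The log2 change was 0.44 ± 0.07 (SE, 3 pairs; adjusted p = 0.0093).

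RACGAP1 (chromosome 12, 50382945 to 50419307) forms the centralspindlin complex with the kinesin KIF23. It was measured at 47.6, 50.3 and 73.5 FPKM in siNT and at 55.9, 64.7 and 110 FPKM in siE2F7. Its levels lay close to those of PRC1 in every library, and the arms diverged in the same order of times, with ratios of 1.17, 1.29 and 1.49. The log2 change was 0.39 ± 0.08 (SE; adjusted p = 0.021), a call that ended without the libraries of 3 h (adjusted p = 0.066) or 12 h (0.073).

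ECT2 (chromosome 3, 172472298 to 172539263), the exchange factor that centralspindlin recruits to activate RhoA, did not pass. In siNT it stood at 26.98, 33.9 and 41.3 FPKM, and in siE2F7 at 30.3, 36.0 and 56.6 FPKM. The arms were close at 0 and 3 h (1.12-fold and 1.06-fold) and wider apart at 12 h (1.37-fold). The log2 change was 0.24 (95% interval 0.04 to 0.44, adjusted p = 0.11).

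ANLN (chromosome 7, 36363759 to 36493400) encodes anillin, the scaffold that ties actin, myosin and septins into the contractile ring. It was among the more abundant of the 10, at 117, 110 and 136 FPKM in siNT and 124, 119 and 176 FPKM in siE2F7. Up to 3 h the arms differed by less than 1.1-fold, and at 12 h the siE2F7 library was 1.29-fold higher. Over the 3 times the log2 change was 0.19, the smallest of the 10 (95% interval 0.003 to 0.37, adjusted p = 0.16). The tables give ANLN 1 locus with KIAA0895, a gene listed at 1.38 to 2.78 FPKM, so the reads of the pair may have been split between them.

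CEP55 (chromosome 10, 95256369 to 95288849), which brings the membrane-cutting ESCRT machinery to the midbody, rose. The siNT libraries held 57.7, 52.1 and 86.9 FPKM and the siE2F7 libraries 63.2, 64.5 and 119 FPKM. Control levels dipped at 3 h while those of the knockdown did not. The log2 change of 0.30 ± 0.08 (SE) was the smallest of the 6 calls (adjusted p = 0.045), and it was not called without the libraries of 3 h (adjusted p = 0.12) or 12 h (0.19), or with genes listed at only some times let in (0.053).

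Of the 3 genes of spindle assembly, NUSAP1 rose. NUSAP1 (chromosome 15, 41624892 to 41673248) binds and stabilises spindle microtubules near chromosomes. Its promoter window holds the E2F site letters printed above, and a link between them and its change was not tested. NUSAP1 stood at 56.8, 54.6 and 66.7 FPKM in siNT and at 73.0, 87.3 and 128 FPKM in siE2F7. In the controls the libraries of 0 and 3 h were close, while in the knockdown each later library was higher. NUSAP1 was the only gene of the 10 with every siE2F7 library above every siNT library, which held for 6.88% of all genes. The ratios were 1.29, 1.60 and 1.92, and the log2 change of 0.66 ± 0.11 (SE; adjusted p = 0.0089) was the largest of the 10 and the 241st highest among all genes.

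TPX2 (chromosome 20, 30326904 to 30389603) activates the kinase Aurora A and promotes microtubule nucleation around chromosomes. Its siNT libraries were at 73.9, 79.4 and 133 FPKM and its siE2F7 libraries at 81.9, 91.5 and 176 FPKM. The step to 12 h was far wider than the gap between the arms. With a log2 change of 0.25 (95% interval 0.08 to 0.42) TPX2 did not pass (adjusted p = 0.062), though it did with robust empirical Bayes (adjusted p = 0.048).

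HMMR (chromosome 5, 162887517 to 162918953), also known as RHAMM, is a microtubule-associated protein of spindle poles, and had the lowest mean level of the 10. Levels in siNT were 26.4, 19.8 and 29.4 FPKM, and in siE2F7 25.4, 21.98 and 44.7 FPKM. Both arms were lower at 3 h than at 0 h, and the arms crossed, with ratios of 0.961, 1.11 and 1.52. Over the 3 times the log2 change was 0.23 with a 95% interval of -0.05 to 0.51, and HMMR did not pass (adjusted p = 0.24).

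Both genes of the mitotic chromosome rose. MKI67 (chromosome 10, 129894925 to 129924468) encodes Ki-67, the proliferation marker that coats mitotic chromosomes and keeps them apart. It was measured at 28.1, 35.1 and 44.0 FPKM in siNT and at 42.2, 46.7 and 72.6 FPKM in siE2F7. MKI67 had the widest gap of the 10 at 0 h, 1.505-fold, and the siE2F7 library of 0 h was close to the siNT library of 12 h. The log2 change was 0.57 ± 0.08 (SE; adjusted p = 0.0047).

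TOP2A (chromosome 17, 38544773 to 38574202), the topoisomerase that untangles sister chromatids, had the highest mean level of the 10, though ANLN was above it at 0 h in both arms. It stood at 99.9, 134 and 198 FPKM in siNT and at 122, 167 and 283 FPKM in siE2F7, each later library above the earlier one. The ratios of 1.22, 1.24 and 1.43 were close at 0 and 3 h and higher at 12 h. The log2 change was 0.37 ± 0.07 (SE; adjusted p = 0.018), not called without the libraries of 0 h (adjusted p = 0.052) or 12 h (0.094).

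NUSAP1, MKI67 and PRC1 were called whichever time was left out, with log2 changes from 0.37 to 0.81 in those fits. Without the libraries of 12 h, or without the variance trend, they were the only 3 of the 10 called, and with no time block none of the 10 was.

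**Figure D3:**
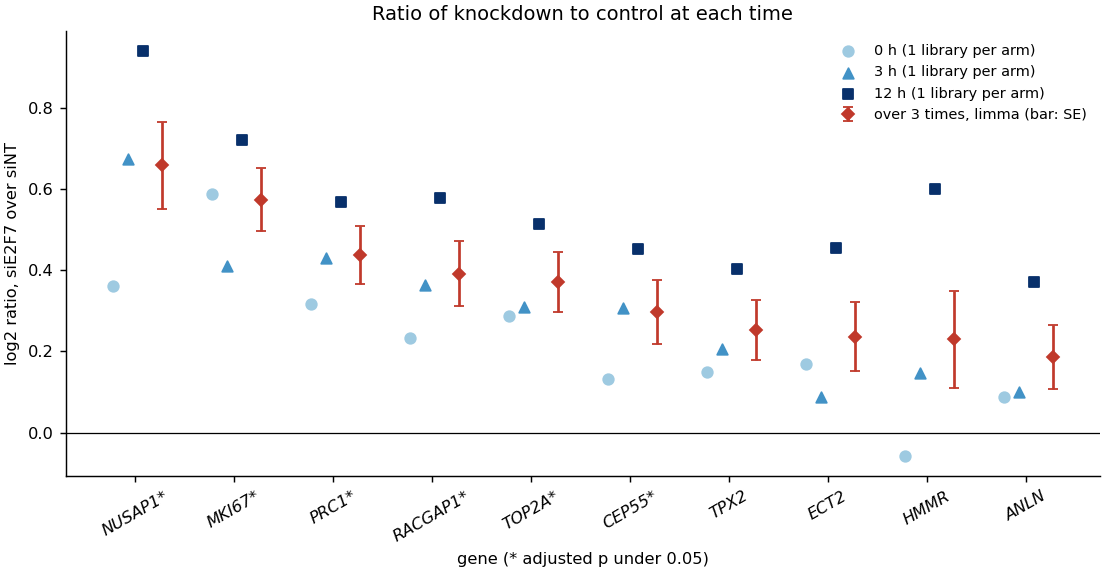
Log2 ratio of siE2F7 over siNT (y) for each gene (x), at 0 h (circles), 3 h (triangles) and 12 h (squares) from 1 library per arm, with the limma estimate over the 3 times and its SE (red diamonds). The square is the highest of the 3 ratios for every gene, from 0.37 for ANLN to 0.94 for NUSAP1.

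The arms stood furthest apart at 12 h. The median log2 ratio of the 10 genes was 0.20 at 0 h, 0.31 at 3 h and 0.54 at 12 h, where the medians of all genes were -0.04, 0.0002 and -0.04. After quantile normalization the first 2 were alike, at 0.21 each. The siE2F7 library was the higher for 9 of the 10 genes at all 3 times, as for 22.8% of all genes. All 10 had their largest ratio at 12 h, which 30.6% of all genes did. From 0 to 3 h the ratio was higher for 8, and lower for ECT2 and MKI67.

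That difference between times was tested by setting the ratio of 12 h against the mean of those of 0 and 3 h, a test chosen after these values were seen. The difference was positive for all 10 and ranged from 0.19 in PRC1 to 0.56 ± 0.17 (SE) in HMMR, with a median of 0.26. None of the 10 passed, the lowest adjusted p being 0.40 for HMMR, followed by 0.70 for NUSAP1 (0.42 ± 0.18, SE). Of all genes 0.135% were called, in either direction. HMMR and NUSAP1 were the 2 of the 10 with an unadjusted p under 0.05, as had 6.89% of all genes. The fit leaves 1 residual degree of freedom, and the 10 genes share the same libraries. The 12 h ratio is not shown to differ from the earlier ones for any single gene of the 10.

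Across time within an arm no test was made, because nothing in the labels says that the tables of the 3 times were scaled together. All 10 genes were highest at 12 h in both arms. The difference between 12 and 0 h had a median of 0.60 on the log2 scale in siNT and 0.86 in siE2F7, against -0.03 and -0.05 for all genes. The 12 h library was above 1.5 times that of 0 h for 6 of the 10 in siNT (5.45% of all genes) and for 9 in siE2F7 (6.44%), all but ANLN. TOP2A and TPX2 had the widest steps in both arms, 1.98-fold and 1.803-fold in siNT and 2.32-fold and 2.15-fold in siE2F7. HMMR had the narrowest in siNT, 1.11-fold, and stepped 1.76-fold in siE2F7. From 0 to 3 h the genes split: TOP2A, ECT2 and MKI67 were higher in siNT by 0.43, 0.33 and 0.32 on the log2 scale, while HMMR was lower by a log2 difference of -0.41 and CEP55 of -0.15.

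**Figure D4:**
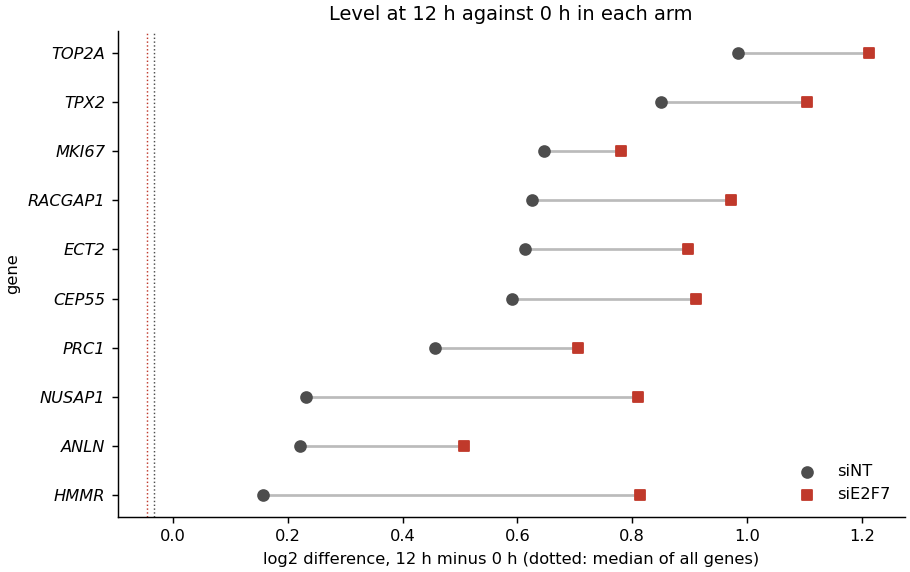
Log2 difference between 12 and 0 h (x) for each gene (y), siNT as grey circles and siE2F7 as red squares, 1 library per arm and time, with dotted lines at the medians of all genes. Each square lies to the right of its circle, by 0.13 for MKI67 up to 0.66 for HMMR.

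By mean FPKM over the 6 libraries the order was TOP2A (167), ANLN (130), TPX2 (106), NUSAP1 (77.7), CEP55 (73.9), PRC1 (67.3), RACGAP1 (67.0), MKI67 (44.8), ECT2 (37.5) and HMMR (28.0). Values per length allow this comparison, and neighbours such as PRC1 and RACGAP1 changed places between libraries. Over the 6 libraries the log2 levels of pairs of the 10 genes had Pearson correlations from 0.71 (HMMR and TOP2A) to 0.99 (ECT2 and TOP2A), with a median of 0.92 over 45 pairs. All pairs share the same 6 libraries, arms and times.

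Likeness was measured in 8883 other genes whose mean reached 5 FPKM. The 8 whose log2 profile over the 6 libraries was most like the mean standardized profile of the 10 had correlations of 0.989 to 0.998. Among them were PCNT, a scaffold of the centrosome, NCAPD2, of condensin I, NDC80, of the outer kinetochore, the kinesins KIF15 and KIF4A, CKAP2L, a spindle protein, and BIRC5, survivin of the chromosomal passenger complex. PCNT, the most alike, stood at 4.87, 4.90 and 6.42 FPKM in siNT and at 5.47, 5.94 and 8.51 FPKM in siE2F7. Since they were picked for a profile that holds the difference between the arms, their own change in siE2F7 is no further result.

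Other genes of the machinery were read from 5 lists. Of 15 central spindle partners, 3 rose and 0 fell, against 6.76% and 7.13% of all genes. By unadjusted p the counts were 6 and 1, against 13.5% and 16.7% of all genes, and the median log2 change was 0.17. CIT, the citron kinase of the midbody, rose by 1.03 ± 0.11 (SE; adjusted p = 0.0023), more than any of the 10 genes. Its siNT libraries held 7.68, 6.26 and 10.3 FPKM, and its siE2F7 libraries 13.7, 12.2 and 25.7 FPKM. BIRC5 rose by 0.40 ± 0.09 and KIF23, the partner of RACGAP1, by 0.26 ± 0.07 (adjusted p = 0.029 and 0.0498). The changes of CDCA8, of the passenger complex, KIF4A, and CLASP2, which stabilises microtubule ends, were 0.26, 0.26 and -0.28, and did not pass (adjusted p = 0.056, 0.067 and 0.07). CDCA8 did pass under median scaling (adjusted p = 0.048) and with robust empirical Bayes (0.042). Without the libraries of 0, 3 and 12 h the 3 calls became 2, 1 and 1: that of KIF23 was lost each time, and also with a pseudocount of 0.01 (adjusted p = 0.051) and with genes listed at any time (0.057), and that of BIRC5 without 3 h (0.098) or 12 h (0.10).

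In the list of spindle assembly 12 of 31 genes rose and 0 fell, against 6.76% and 7.13% of all genes. By unadjusted p the counts were 19 and 2, against 13.5% and 16.7% of all genes, and the median was 0.22. The 12 called genes included 5 of the 8 subunits of augmin, the complex that branches spindle microtubules, a group singled out after its values were seen. Of these HAUS1, HAUS2 and HAUS5 changed most, at 0.53 ± 0.11, 0.50 ± 0.09 and 0.43 ± 0.08 (SE; adjusted p = 0.022, 0.011 and 0.014). TACC3, which stabilises kinetochore fibres, rose by 0.43 ± 0.07 (adjusted p = 0.0094). ASPM, a spindle pole protein, had a log2 change of 0.34, PCNT one of 0.28 and SPAG5 one of 0.25, none of which passed (adjusted p = 0.096, 0.11 and 0.10). The count of 12 was 6, 1 and 5 without the libraries of 0, 3 and 12 h, and 3 without the variance trend. Without 3 h TACC3 alone was called (adjusted p = 0.0496), and no augmin subunit was, HAUS1, HAUS2 and HAUS5 having adjusted p of 0.10, 0.053 and 0.073. The 5 augmin calls became 2 without 0 h, where HAUS5 was at 0.059, 3 without 12 h and 2 without the variance trend.

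The genes of ring contraction and abscission, 30 of 31 measured, had calls at or under the shares of all genes. MYH10 rose and 2 fell, where 6.76% of all genes were called higher and 7.13% lower. By unadjusted p the counts were 2 and 5, against 13.5% and 16.7% of all genes, and the median was -0.07. MYH10 and MYH9, both heavy chains of nonmuscle myosin, went opposite ways. MYH10 rose by 0.65 ± 0.09 (SE; adjusted p = 0.0042). Its siNT libraries held 16.9, 17.1 and 10.3 FPKM, and its siE2F7 libraries 25.4, 24.7 and 18.6 FPKM, the higher at each time. MYH9 had a log2 change of -0.33 ± 0.07 (adjusted p = 0.022). Its siNT libraries were at 150, 168 and 169 FPKM, and its siE2F7 libraries at 129, 125 and 131 FPKM, the lower at each time. TSG101, of ESCRT-I, fell as well (-0.31 ± 0.08, adjusted p = 0.045). The call of MYH9 ended without 3 h or 12 h (adjusted p = 0.064 and 0.094), as did that of TSG101 (0.19 and 0.10), which was also lost under median scaling (0.051) and with genes listed at any time (0.052). The changes of MYH14, another heavy chain, and of the ESCRT-III genes CHMP1A and CHMP2A were -0.30, 0.24 and -0.24, and none passed (adjusted p = 0.13, 0.054 and 0.24). CHMP1A did pass after quantile normalization (adjusted p = 0.042), under median scaling (0.039) and with robust empirical Bayes (0.043).

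No gene of 10 in the list of topoisomerases and chromosome periphery was called by limma, where 6.76% of all genes were called higher and 7.13% lower. In a list this short, that count is near those shares. By unadjusted p 1 was higher and 1 lower, against 13.5% and 16.7% of all genes, and the median was -0.06. For TOP1MT and TOP3B, other topoisomerases, the log2 changes were -0.28 and -0.17 (adjusted p = 0.13 and 0.24), and for CDCA2, a phosphatase subunit of anaphase chromosomes, 0.21 (adjusted p = 0.12). Of 11 measured regulators of late cell cycle genes (13 listed), 4 rose and 0 fell, against the same 6.76% and 7.13%. By unadjusted p the counts were 7 and 1, against 13.5% and 16.7% of all genes, with a median of 0.25. RBBP4, a histone-binding subunit of MuvB, rose by 0.74 ± 0.09 (SE), MYBL2, which encodes B-MYB, by 0.65 ± 0.08, LIN52, of MuvB, by 0.38 ± 0.08 and TFDP1, a partner of E2Fs, by 0.25 ± 0.06 (adjusted p = 0.0036, 0.0042, 0.021 and 0.036). RBBP4 was listed at 1 locus with SYNC, which stood at 14.6, 13.4 and 10.6 FPKM in siNT. In siE2F7 SYNC stood at 23.3, 19.7 and 19.4 FPKM. The reads of the pair may have been split between them, so their changes may not be separate. MYBL2 stood at 152, 141 and 110 FPKM in siNT and at 213, 215 and 199 FPKM in siE2F7, and was not highest at 12 h in either arm, unlike the 10 genes. RBL1, the pocket protein p107, LIN54, the CHR-binding subunit of MuvB, and LIN9 had changes of 0.45, 0.29 and 0.23, and did not pass (adjusted p = 0.062, 0.064 and 0.10). RBL1 did pass with robust empirical Bayes (adjusted p = 0.046), and LIN54 after quantile normalization (0.046). Without the libraries of 0, 3 and 12 h the 4 calls became 3, 2 and 2: that of TFDP1 was lost each time, and that of LIN52 without 3 h (adjusted p = 0.096) or 12 h (0.058).

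**Figure D5:**
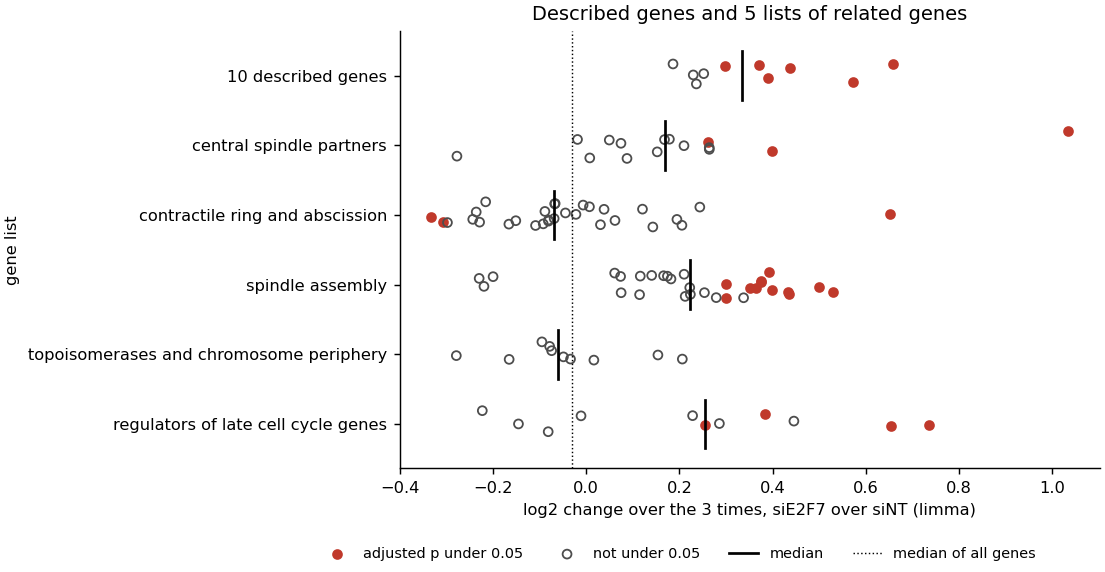
Log2 change over the 3 times (x, limma) of the 10 described genes and of the measured genes of 5 lists (y, spread vertically for legibility), with genes of adjusted p under 0.05 filled, the median of each list as a bar and that of all genes dotted. The 10 genes lie between 0.19 and 0.66, and those of ring contraction and abscission between -0.33 and 0.65.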

How the data were processed

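Values are FPKM per gene as deposited by the authors, 1 table per library. Per the submitters' processing notes, CASAVA 1.8 and the build hg19 (GRCh37) were used. Neither aligner nor annotation is given in the sources used here, nor any filter. Per the labels' protocols, libraries were made with an Illumina TruSeq kit from TRIzol and RNeasy RNA. Each time was listed as its own pair of libraries (12799, 12475 and 12299 genes at 0, 3 and 12 h), and in every pair the higher value was at least 1.26 FPKM. No reads are given, so no counting error is known.

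Tables were joined by gene identifier, with coordinates 1-based. limma 3.58.1 (R 4.3.3) compared the arms on log2(FPKM + 0.1), a scale that understates changes of low genes. Time was a block, and the fit had a variance trend (2 residual and 5.41 prior degrees of freedom). On data simulated with independent errors of the fitted spread, the share of unchanged genes that it called stayed under 0.05. That share is not the false discovery rate. Effects shared by a library were not simulated, so the simulation cannot vouch for the calls made here. The test of 12 h against earlier times has 1 residual degree of freedom and on simulated data made more false calls than its threshold aims for. It was added after values were seen. Alternatives were the pseudocount, a filter, scalings, the variance fit, the block and leaving out each time.

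The 10 genes and the lists were chosen with earlier results of these data known, so no list is independent evidence. Named besides them are, per list, up to 4 called genes at each end of the change, up to 3 others with the widest change, and the 8 most alike in profile, of which 1 is not reported here.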

Additional observations from a re-analysis of the deposited data

Results flagged for a closer look

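The ratio of HMMR at 0 h was on the other side of 0 from those at 3 and 12 h. It was -0.0570 on the log2 scale (26.4 FPKM in siNT and 25.4 in siE2F7), against 0.15 and 0.60, with 1 library per arm and time, and the sign at 0 h was the same under every pseudocount and scaling tried. At 0 h the median of all genes was -0.04, close to this value. The difference of 0 h from the other times was not tested.

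CHMP2A, an ESCRT-III subunit, had a log2 ratio of 0.0827 at 3 h, against -0.25 at 0 h and -0.56 at 12 h. Its difference between times was not tested, and its levels of 6.03 to 12.1 FPKM were lower than those of the 10 genes.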

How the results depend on the processing

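Without the variance trend 3 of the 10 genes were called higher (NUSAP1, MKI67 and PRC1), with 400 genes higher and 452 lower in all and 7 and 0 of the 5 lists. With no time block the counts were 0 of the 10, 15 and 17 in all, and 0 and 0 of the lists, and the call of E2F7 itself was lost (adjusted p = 0.12). The 2 list genes called lower became 1 with genes listed at any time, 4 after quantile normalization and 1 under median scaling. Leaving out 1 time gave 3 to 5 of the 10 genes, 332 to 557 genes higher and 431 to 560 lower in all, and 5 to 12 higher and 0 to 2 lower of the lists, as fewer libraries enter each fit. Of 120 fits of the 10 genes under alternatives, 0 reversed a direction, 16 ended a call and 1 made one (TPX2). The number with the largest ratio at 12 h was 10 under both other pseudocounts and both other scalings, a count added after the data were seen. Depth is unknown, so the counting error of low genes cannot be given.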

Other observations

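The lists also differed in their course through the cell cycle, given as values without a test. Central spindle partners had a median log2 difference between 12 and 0 h of 0.76 in siNT and 0.96 in siE2F7, and genes of spindle assembly 0.39 and 0.63. Genes of ring contraction and abscission stood at -0.04 and -0.02, and regulators of late cell cycle genes at -0.13 and -0.06. Topoisomerases and genes of the chromosome periphery stood at 0.25 and 0.09, the only list of the 5 with the lower median in siE2F7. The largest ratio of siE2F7 to siNT was that of 12 h in 13 of 15 central spindle partners, in 19 of 31 genes of spindle assembly, in 8 of 11 regulators, in 6 of 30 genes of ring contraction and abscission and in 3 of 10 topoisomerases and genes of the chromosome periphery, as in 30.6% of all genes. The median ratio of central spindle partners was 0.07 at 0 h, 0.08 at 3 h and 0.39 at 12 h.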
